A study of Homo sapiens with 2 samples.

Results

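The genes described here were 46 protein-coding genes of the epithelial-mesenchymal transition (EMT), cell adhesion and TGF-beta signalling. They were a fixed list of names, chosen with earlier results of these data known. The list was taken out of 43039 genes with a RefSeq transcript, 20033 of them protein-coding. The 46 genes were followed in a ChIP-seq experiment on PHF8 in RKO cells, a long-established line from a human colon carcinoma. The cells had been transfected with an empty vector or with an APOC2 overexpression plasmid. APOC2 encodes an apolipoprotein. Per the labels both groups were RKO cells and the same antibody to PHF8 was used, with 1 library and 1 peak table for each group. With no replicate of either group, no difference below could be set against variation between replicates, no test between the groups was possible, and the values describe these libraries only.

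EMT is the shift of an epithelial cell, held to its neighbours by cadherin junctions, tight junctions and desmosomes, towards a motile mesenchymal state. TGF-beta is one of its best known inducers. The ligand assembles a pair of receptor kinases, these phosphorylate SMAD2 and SMAD3, and the SMADs enter the nucleus with SMAD4, where SNAI, ZEB and TWIST factors are among the genes switched on and CDH1 is among those switched off. PHF8 is a histone demethylase whose PHD finger reads methylated lysine 4 of histone H3, a mark of active promoters, and it has been linked to EMT in several carcinomas.

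A gene was called occupied when the midpoint of a listed peak lay within 1 kb of its annotated start or end. Of the 46 genes, 3 were occupied in the vector library (6.52%) and 9 in the APOC2 library (19.6%). Over all protein-coding genes the shares were 5.95% and 23.8%. The occupied share of the 46 genes was thus near that of protein-coding genes in both libraries. SMAD2, SMAD4 and PTK2 were occupied in both libraries, against 5.85% of protein-coding genes. ITGA6, SKI, OCLN, CTNNA1, CTNND1 and CADM1 were occupied in the APOC2 library alone (6 of 46, against 18.0%). With equal numbers of top-ranked peaks OCLN was the 1 gene in this class, and when the peak itself had to overlap a gene end none of the 6 was occupied. At these settings 12.5% and 8.55% of protein-coding genes were occupied in the APOC2 library, and 5.95% and 1.45% in the vector library. None of the 46 was occupied in the vector library alone, where 0.105% of protein-coding genes were. The other 37 genes were occupied in neither library.

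The promoters of genes on which these results turn are printed to show what lay under or beside the peaks. Each is the RefSeq promoter window (GRCh38.p14), 250 bases before to 50 after the start, given from 5′ to 3′ on the gene's strand in lower case with every CG dinucleotide in capitals. SMAD4 and SMAD2 were occupied in both libraries, OCLN and ITGA6 in the APOC2 library alone, CADM4 had an APOC2 peak across its promoter start that the rule did not count, and FN1 had no peak nearby. ITGA6, CADM4 and FN1 were chosen after their values had been seen.
SMAD4, chr18:51029963-51030262, plus strand: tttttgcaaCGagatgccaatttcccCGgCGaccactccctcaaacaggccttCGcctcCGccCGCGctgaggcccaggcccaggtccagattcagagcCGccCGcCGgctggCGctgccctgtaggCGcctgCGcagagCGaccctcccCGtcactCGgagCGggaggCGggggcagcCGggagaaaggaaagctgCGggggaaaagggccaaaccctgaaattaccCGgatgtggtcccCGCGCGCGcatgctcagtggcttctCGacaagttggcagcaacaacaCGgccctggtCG
SMAD2, chr18:47930823-47931122, minus strand: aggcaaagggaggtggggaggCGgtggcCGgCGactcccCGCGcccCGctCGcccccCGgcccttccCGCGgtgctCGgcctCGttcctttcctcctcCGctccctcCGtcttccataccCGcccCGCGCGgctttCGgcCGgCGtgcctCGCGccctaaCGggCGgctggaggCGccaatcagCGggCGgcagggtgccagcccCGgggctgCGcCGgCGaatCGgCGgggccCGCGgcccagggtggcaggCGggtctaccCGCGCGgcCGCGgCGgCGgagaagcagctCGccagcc
OCLN, chr5:69492297-69492596, plus strand: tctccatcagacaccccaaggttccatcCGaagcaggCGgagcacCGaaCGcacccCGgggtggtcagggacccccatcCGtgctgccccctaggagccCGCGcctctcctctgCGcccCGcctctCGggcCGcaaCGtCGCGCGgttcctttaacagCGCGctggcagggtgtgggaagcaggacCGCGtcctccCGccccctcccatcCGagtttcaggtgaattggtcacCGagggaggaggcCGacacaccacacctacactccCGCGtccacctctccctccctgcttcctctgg
ITGA6, chr2:172427086-172427385, plus strand: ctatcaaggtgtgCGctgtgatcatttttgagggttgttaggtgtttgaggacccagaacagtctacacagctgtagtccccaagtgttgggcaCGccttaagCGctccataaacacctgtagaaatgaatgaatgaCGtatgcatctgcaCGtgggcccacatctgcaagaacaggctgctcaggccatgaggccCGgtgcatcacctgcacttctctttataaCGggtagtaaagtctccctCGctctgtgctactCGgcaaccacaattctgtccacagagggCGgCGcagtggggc
CADM4, chr19:43639801-43640100, minus strand: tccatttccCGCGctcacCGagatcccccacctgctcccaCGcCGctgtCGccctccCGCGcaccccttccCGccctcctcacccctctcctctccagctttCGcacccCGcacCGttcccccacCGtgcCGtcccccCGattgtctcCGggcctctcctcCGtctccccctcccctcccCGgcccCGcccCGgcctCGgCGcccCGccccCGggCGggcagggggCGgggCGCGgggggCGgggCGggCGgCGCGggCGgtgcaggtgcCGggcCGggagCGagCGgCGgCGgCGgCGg
FN1, chr2:215436019-215436318, minus strand: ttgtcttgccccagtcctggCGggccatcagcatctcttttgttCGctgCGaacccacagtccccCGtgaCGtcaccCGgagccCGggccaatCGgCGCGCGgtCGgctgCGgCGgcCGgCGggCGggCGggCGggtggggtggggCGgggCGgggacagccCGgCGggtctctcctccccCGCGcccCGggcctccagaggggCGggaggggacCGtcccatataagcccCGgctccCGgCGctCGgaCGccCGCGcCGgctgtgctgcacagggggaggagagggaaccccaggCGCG
These windows held 28 (SMAD4), 45 (SMAD2), 26 (OCLN), 11 (ITGA6), 42 (CADM4) and 38 (FN1) CG dinucleotides. APOC2 peaks covered all 300 bases of the SMAD4 and CADM4 windows, 218 of SMAD2, 38 of OCLN and 0 of FN1 and ITGA6. Vector peaks covered 72 bases of the SMAD4 window and 0 of the other windows. At ITGA6 the peak began downstream of the window, and at OCLN nearly all of it lay there.

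Values below are the fold enrichment over the local background at the peak summit, as listed by the authors. The interval after each is the 95% exact Poisson interval of the summit pileup carried to that scale, so it covers counting error only, and without molecular identifiers the fragments need not be independent. Where a gene had several peaks at its ends, the one with the highest fold enrichment stands for it.

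Both SMAD genes occupied in the vector library were also occupied in the APOC2 library. SMAD4, the common partner of all receptor-regulated SMADs, lies on chromosome 18 (51030213 to 51085042). The vector table listed peaks at 51029806 to 51030029 and at 51030258 to 51030599, on either side of the start, with fold enrichments of 5.40 (3.06 to 8.96) and 8.35 (5.79 to 11.7). In the APOC2 table a single peak of 926 bp, from 51029729 to 51030654, spanned both and the start between them, with 11.01 (7.80 to 15.1). The log2 ratio, APOC2 over vector, was 0.40 against the stronger vector peak. The uncharacterised LOC107985152 has an end within 1 kb of all of them, so the signal cannot be given to one of the pair.

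SMAD2, a signal carrier phosphorylated by the TGF-beta receptors, lies on the same chromosome (47808957 to 47930872, minus strand). The vector table had 1 peak there, centred 481 bp inside the gene, at 5.28 (3.64 to 7.42). The APOC2 table had 3 peaks: one over the vector peak at 6.01 (4.09 to 8.54), one across the start at 4.34 (2.87 to 6.32), and one centred 578 bp upstream, also at an end of LOC124904297, at 6.93 (4.72 to 9.85). The strongest APOC2 peak and the vector peak were therefore at different places. The log2 ratio was 0.39 between the strongest peaks and 0.19 between the overlapping ones.

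PTK2, the focal adhesion kinase that relays integrin contact to the cytoskeleton, had the strongest peak of the 46 genes. It lies on chromosome 8 (140657900 to 141002079). Near its higher-coordinate end the vector peak (141001486 to 141001790) had a fold enrichment of 11.8 (8.62 to 15.8) and the APOC2 peak (141001472 to 141002176) had 16.4 (12.5 to 21.1), a log2 ratio of 0.47. The APOC2 value ranked at percentile 99.5 of the 4777 protein-coding genes occupied in that library, and SMAD4 ranked at 96.1. A further pair of peaks inside PTK2, just beyond 1 kb from the end, had 8.17 (5.66 to 11.4) in the vector table and 14.2 (10.2 to 19.3) with APOC2.

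At each of SMAD2, SMAD4 and PTK2 the APOC2 value was the higher one, but the intervals overlapped. The median log2 ratio of the 3 genes was 0.40, below the median of 0.52 over the 1171 protein-coding genes occupied in both libraries (quartiles 0.22 and 0.78). Of those 1171 genes, 89.4% had a ratio above 0, so the direction at these 3 genes was that of nearly all occupied genes. Scaling the pileups to a common depth, on the assumption that both tables had been called against the same control, gave APOC2 over vector ratios of 1.14 (0.661 to 1.95) at SMAD2, 1.37 (0.825 to 2.27) at SMAD4 and 1.61 (1.07 to 2.45) at PTK2. These are 95% exact intervals for counting error, and only that of PTK2 lay above 1. As log2 values the ratios were 0.184 at SMAD2, 0.45 at SMAD4 and 0.687 at PTK2. The median log2 ratio of depth-scaled pileups over the 1171 protein-coding genes was 0.566. On that scale the intervals of all 3 genes held this median (-0.598 to 0.963, -0.277 to 1.184 and 0.091 to 1.293). As listed, without the scaling, the pileup at SMAD2 was the lower one in the APOC2 table, with a log2 ratio of -0.081.

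The 3 genes lay on the chromosomes where occupancy in both libraries was among the highest. On chromosome 8, 26.6% of protein-coding genes were occupied in both libraries, the highest share of any chromosome, and on chromosome 18, the third in that order, 14.1% were. The part of the chromosome in the result at these genes was not tested.

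**Figure D1:**
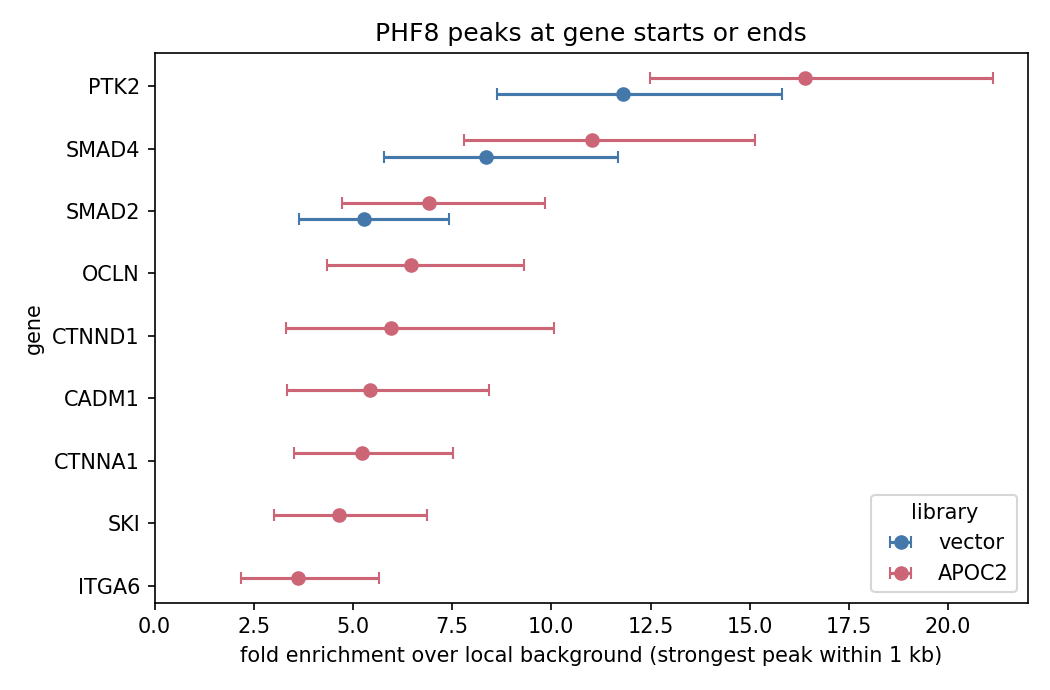
Fold enrichment of the strongest peak within 1 kb of either end of each occupied gene (horizontal axis, linear), in the vector (blue) and APOC2 (red) library, 1 library each; bars are 95% Poisson intervals of the summit pileup. PTK2 (11.8 and 16.4), SMAD4 (8.35 and 11.01) and SMAD2 (5.28 and 6.93) have a point in both libraries, and the other 6 genes in the APOC2 library alone, between 3.61 and 6.47.

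The genes occupied in the APOC2 library alone had modest peaks. Their median fold enrichment was 5.33, against 5.004 over the 3606 protein-coding genes in the same class. OCLN, which encodes the tight junction protein occludin, had the highest value, 6.47 (4.34 to 9.30), with a pileup of 27 fragments, in a peak on chromosome 5 (69492559 to 69493027) that began just inside the gene. CTNND1, whose product p120-catenin keeps cadherins at the membrane, had 5.96 (3.30 to 10.1) on chromosome 11 (57761830 to 57762050), from a pileup of only 12. CADM1, an immunoglobulin-like cell adhesion molecule, had 5.43 (3.34 to 8.42) at its higher-coordinate end on chromosome 11 (115504168 to 115504387).

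CTNNA1 encodes alpha-catenin, the link from cadherin complexes to actin. Its peak on chromosome 5 (138753473 to 138753997) had 5.23 (3.51 to 7.52) and lay within 1 kb of an end of the antisense gene CTNNA1-AS1 as well. SKI, a nuclear repressor that binds SMADs, had a peak on chromosome 1 (2227422 to 2227640) at 4.65 (3.02 to 6.88), whose midpoint was 788 bp outside the gene, nearest of all to the 1 kb limit. ITGA6, the integrin alpha chain that pairs with ITGB4 in hemidesmosomes, had the weakest peak, 3.61 (2.18 to 5.65), on chromosome 2 (172427443 to 172427848), at percentile 10.0 of occupied protein-coding genes.

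A missing vector peak does not mean missing vector signal. At the local background of each APOC2 peak, carried to the control's depth, the lowest -log10 p in the vector table (4.70) corresponds to a pileup between 8.91 (CTNND1) and 17.8 (SKI and CTNNA1). The depth-scaled APOC2 pileups were 1.29 (ITGA6), 1.64 (SKI), 1.82 (CTNND1 and CADM1), 1.93 (CTNNA1) and 2.19 (OCLN) times the highest vector pileup that would have missed that limit. A vector signal smaller than the APOC2 signal by little more than these factors could therefore have gone unlisted. This computation takes the control to be the same for both tables and leaves out the caller's demand on peak width.

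Where the RefSeq promoter table gives a start, the peaks at the occupied genes gathered around it. In SMAD2, SMAD4, ITGA6, OCLN and CTNNA1 all midpoints lay between 578 bp upstream and 566 bp downstream of the start. None lay at the far end of the gene. Over the 13396 protein-coding genes longer than the windows and with a known start, 97.5% of those occupied in the APOC2 library and 97.8% in the vector library had peaks at the start only. CTNND1 and SKI had their peak at the lower-coordinate end of the gene, and CADM1 and PTK2 at the higher-coordinate end.

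**Figure D2:**
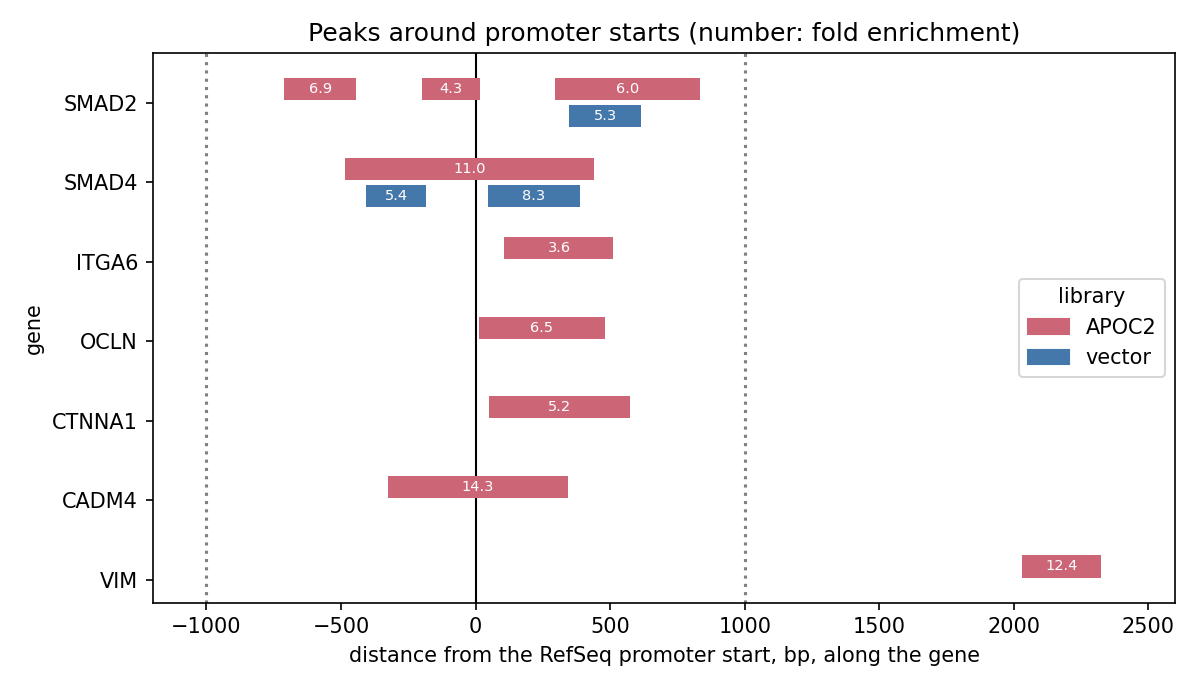
Peaks near the RefSeq promoter start (solid line; dotted lines at 1 kb) of 7 genes with a known start, in bp along the direction of the gene, with APOC2 peaks in red above vector peaks in blue and the fold enrichment written on each. The APOC2 peak of SMAD4 spans both vector peaks (5.40 and 8.35), and the APOC2 peak of CADM4 (14.3) is centred on the promoter start.

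CADM4, a second immunoglobulin-like adhesion molecule, was not occupied by the rule, although its APOC2 peak was stronger than those of all occupied genes except PTK2. The annotated gene (chromosome 19, 43622368 to 43641984, minus strand) extends beyond the start of its RefSeq promoter window. The peak at 43639508 to 43640175 covered that start, its midpoint 8 bp inside, but was 2142 bp from the end of the annotated gene. It had a fold enrichment of 14.3 (10.01 to 19.8) and a -log10 q of 30.6. No vector peak overlapped CADM4. When promoter starts were added to the sites that count, a choice made after the data had been seen, the APOC2 number was 10 of 46, with CADM4 as the added gene, and 24.8% over protein-coding genes.

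Of the 6 EMT transcription factor genes among the 46, 0 were occupied in either library, against 23.8% (APOC2) and 5.95% (vector) of protein-coding genes. In a group of 6 a single gene moves the share widely, so this count does not set these genes apart. SNAI1, SNAI2, ZEB1, ZEB2, TWIST1 and TWIST2, which repress epithelial genes or drive mesenchymal ones, had their nearest APOC2 peak at distances from 51.95 kb (ZEB2) to 1.172 Mb (TWIST1), and none of the 6 had a peak of either library inside the gene. The same held for the genes whose level marks the state of the cell, CDH1 (E-cadherin), CDH2 (N-cadherin), FN1 (fibronectin), CD44 (a hyaluronan receptor) and EPCAM (an epithelial adhesion molecule), none of which carried a peak at an end or inside. The peaks nearest to CDH1, 8.14 kb away in the vector table and 8.18 kb away with APOC2, lay at an end of the neighbour TANGO6, with fold enrichments of 5.77 and 6.83.

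VIM, which encodes the mesenchymal filament vimentin, had no peak within 1 kb but an APOC2 peak 2176 bp inside the gene (chromosome 10, 17230272 to 17230563), at 12.4 (8.72 to 17.2). An end of the antisense gene VIM-AS1 lies within 1 kb of that peak. No vector peak lay within 2 Mb of VIM, the nearest being 2.131 Mb from its ends.

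Of the 4 TGF-beta ligand and receptor genes among the 46, 0 were occupied, against 23.8% (APOC2) and 5.95% (vector) of protein-coding genes. The ligands TGFB1 and TGFB2 and the receptor kinases TGFBR1 and TGFBR2 had no peak at an end or inside in either library. SMAD3, the second signal carrier, and SMAD7, the inhibitory SMAD, were unoccupied as well, so that 3 of 5 genes in the group of SMADs and SKI were occupied in the APOC2 library and 2 of 5 in the vector library. With groups this small, a single gene moves such shares widely.

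Among integrins, 1 of 7 was occupied, ITGA6, in the APOC2 library (14.3%, against 23.8% of protein-coding genes). ITGA3, ITGA5, ITGAV, ITGB1 and ITGB4 had no peak at an end or inside. ITGB5 had an APOC2 peak 14.35 kb inside its higher-coordinate end (chromosome 3, 124886635 to 124887498) at 7.59 (4.72 to 11.6), and no vector peak. The matrix metalloproteinases MMP2, MMP9 and MMP14, which cut extracellular matrix, were unoccupied, and their nearest APOC2 peaks were 36.82 kb away or more.

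Of the junction genes, the claudins CLDN1, CLDN4 and CLDN7, the desmosomal plaque genes JUP and DSP, and the scaffold TJP1 were unoccupied. The peaks nearest to DSP, 3.65 kb (vector) and 3.63 kb (APOC2) away, lay at an end of SNRNP48, with 4.81 and 5.50. TJP1 held an internal peak in both libraries, 146818 bp downstream of the promoter start used here in the APOC2 table (chromosome 15, 29821998 to 29822463). Other possible starts of TJP1 were not examined. The fold enrichment of this peak was 4.45 (2.97 to 6.45) in the vector table and 10.6 (7.50 to 14.5) with APOC2. The log2 ratio was 1.25, larger than at SMAD2, SMAD4 and PTK2. These intervals did not overlap, but they take each local background as exact. The peak lies outside the 1 kb rule, and its log2 ratio was the largest among overlapping peaks at these genes. The depth-scaled pileup ratio there was 1.68 (0.988 to 2.90), and the local background on the control's scale was 5 for the vector peak and 3 for the APOC2 peak, so both terms of the ratio differed.

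In the focal adhesion group PTK2 was the 1 occupied gene of 4. PXN and VCL, which encode the adaptor paxillin and the actin linker vinculin, had no peak at an end or inside. SRC, a kinase that partners PTK2, had an APOC2 peak 1360 bp inside its lower-coordinate end (chromosome 20, 37345782 to 37346336) at 6.50 (4.09 to 9.87), just outside the 1 kb limit. With a 3 kb window SRC, VIM and CADM4 joined the occupied genes, for 12 of 46 in the APOC2 and 3 of 46 in the vector library, against 26.2% and 6.58% of protein-coding genes.

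The distance to the nearest peak described the unoccupied genes. Of the 46 genes, 6 had their nearest APOC2 peak between 1 and 10 kb from an end, 10 between 10 and 100 kb, 18 between 100 kb and 1 Mb, and 3 farther away. Of the same 46 genes, 21 had no vector peak within 1 Mb. The median distance for genes without a peak at an end was 617.3 kb in the vector table (43 genes) and 122.9 kb with APOC2 (37 genes). The APOC2 table listed 8928 peaks against 4015. Distances were not computed for other genes, so these values do not set the 46 apart.

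**Figure D3:**
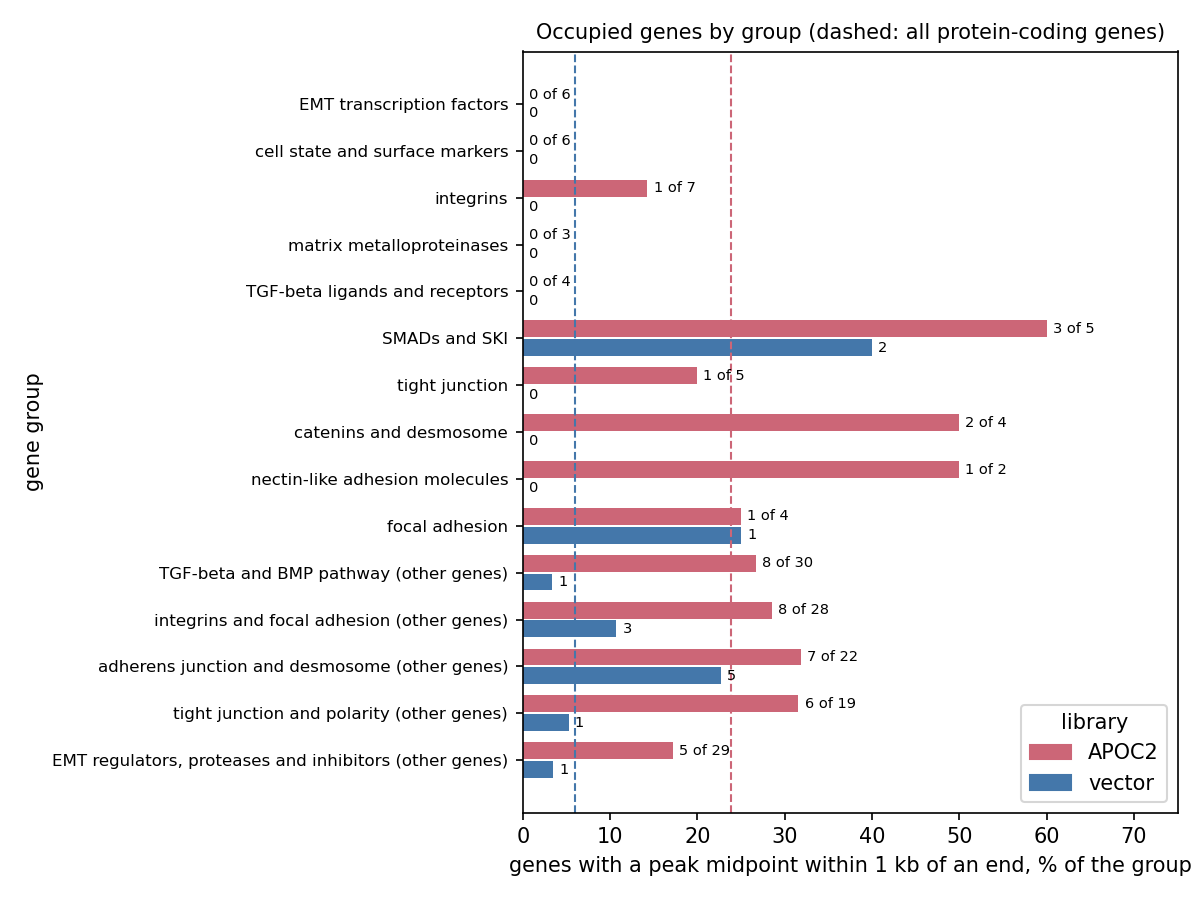
Share of the genes in each group (horizontal axis, percent) with a peak midpoint within 1 kb of an end, in the APOC2 (red) and vector (blue) library, with the counts beside the bars and the shares over all protein-coding genes (23.8% and 5.95%) as dashed lines; groups marked as other genes are not among the 46. SMADs and SKI have 3 of 5 occupied in the APOC2 library, and the EMT transcription factors 0 of 6.

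Other genes of the same pathways, 128 in 5 lists, were examined by the same rule. These lists too were chosen with earlier results of these data known. Of the 128 genes, 34 (26.6%) were occupied in the APOC2 library and 11 (8.59%) in the vector library. Each of the 11 was also occupied in the APOC2 library. The shares over protein-coding genes, 23.8% and 5.95%, were close to these.

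Of 30 other genes of TGF-beta and BMP signalling, 8 (26.7%) were occupied in the APOC2 and 1 (3.33%) in the vector library. The shares of protein-coding genes were 23.8% and 5.95%. The activin receptor genes ACVR2A and ACVR1B and the BMP-pathway SMAD5 had the highest APOC2 fold enrichments of the list, 8.33, 5.35 and 7.34, with no vector peak. SMURF1, a ubiquitin ligase that marks SMADs and receptors for degradation, was the 1 gene occupied in the vector library, with 7.35 there and 4.82 in the APOC2 table. Its pileup as listed went the other way, from 42.6 to 48.

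Of 28 further genes of integrins and focal adhesions, 8 (28.6%) were occupied in the APOC2 and 3 (10.7%) in the vector library. Protein-coding genes had 23.8% and 5.95%. ITGA2, a collagen receptor chain, had 5.67 in the vector table and 13.1 with APOC2, in peaks that also lay at ITGA2-AS1. LIMS1, an adaptor of the integrin-linked kinase, had 3.46 and 6.88, and GCC2-AS1 has an end within 1 kb of its APOC2 peak. TLN1, the talin that activates integrins, had 5.45 and 6.29, in peaks shared with an end of CREB3. CRK, an adaptor protein, had 7.15 in the APOC2 table alone.

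The list of 22 adherens junction and desmosome genes had 7 occupied in the APOC2 library (31.8%, against 23.8% of protein-coding genes) and 5 in the vector library (22.7%, against 5.95%). The desmosomal genes PKP2 and DSG2 went from 7.94 to 16.0 and from 5.61 to 11.01. CTNNAL1, a relative of alpha-catenin, had 4.33 and 10.2, and PERP, a desmosomal membrane protein, had 3.96 and 7.36. AFDN, which ties nectins to actin, was lower in the APOC2 table, with 10.9 and 9.96, where AFDN-DT also has an end within 1 kb. The spread between replicates was not measured for these pairs, and whether this list differed from other genes was not tested.

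Of 19 tight junction and polarity genes, 6 (31.6%) were occupied in the APOC2 and 1 (5.26%) in the vector library. Protein-coding genes had 23.8% and 5.95%. PATJ, a polarity scaffold whose peak also lay at PATJ-DT, had 7.25 in the vector table and 7.55 with APOC2, while CLDN23, a claudin gene, had 5.81 in the APOC2 table alone. Of 29 EMT regulators, proteases and inhibitors, 5 (17.2%) were occupied in the APOC2 and 1 (3.45%) in the vector library, against the same shares. MMP11, a stromelysin, had 7.28 and 12.1, in a place that LOC107985577 shares. KLF4 and MMP24 had 6.45 and 5.80 in the APOC2 table alone, and the peak at MMP24 also lay at ends of EIF6, MMP24OS and the readthrough gene MMP24-AS1-EDEM2. Over the 11 genes of these lists occupied in both libraries the median log2 ratio was 0.89. Over the 1171 protein-coding genes occupied in both it was 0.52 (quartiles 0.22 and 0.78). Of the 11 genes, 9 had a ratio above 0, against 89.4% of those protein-coding genes. Whether the 11 genes differed from the others was not tested.

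Promoter sequence was compared next, since it was not used by the rule. Of the 46 genes, 32 had a RefSeq promoter window. The number of CG dinucleotides in 300 bases had a median of 28 in the 5 occupied genes with a window (11 to 45) and 23 in the 27 genes occupied in neither library (5 to 50), against 22 over all 15842 protein-coding promoters. Among those promoters the median was 29 for genes occupied in the APOC2 library and 19 for genes occupied in neither. Over the protein-coding genes with a promoter window, occupancy in the APOC2 library was 4.58% where the window held 0 to 9 CG dinucleotides. It was 40.5% where the window held 40 or more. In the vector library it went from 0.958% to 9.55%.

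CG-rich promoters without a peak at an end were common in the set, as they were among all protein-coding promoters. PXN (50), SMAD3 (44), TGFBR1 (40), ITGB1 (39), FN1 (38) and DSP (37) were unoccupied, as was CADM4 (42) by the rule. In the range of 30 to 39 CG dinucleotides 1 of 7 of these genes was occupied in the APOC2 library, against 37.9% of protein-coding promoters. In the range of 40 or more, 1 of 5 was by the same rule, against 40.5%. It would be 2 of 5 if the peak on the CADM4 promoter start were counted. At the low end, CLDN4 (5) and TGFBR2 (8) were unoccupied, and ITGA6 (11) was occupied.

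**Figure D4:**
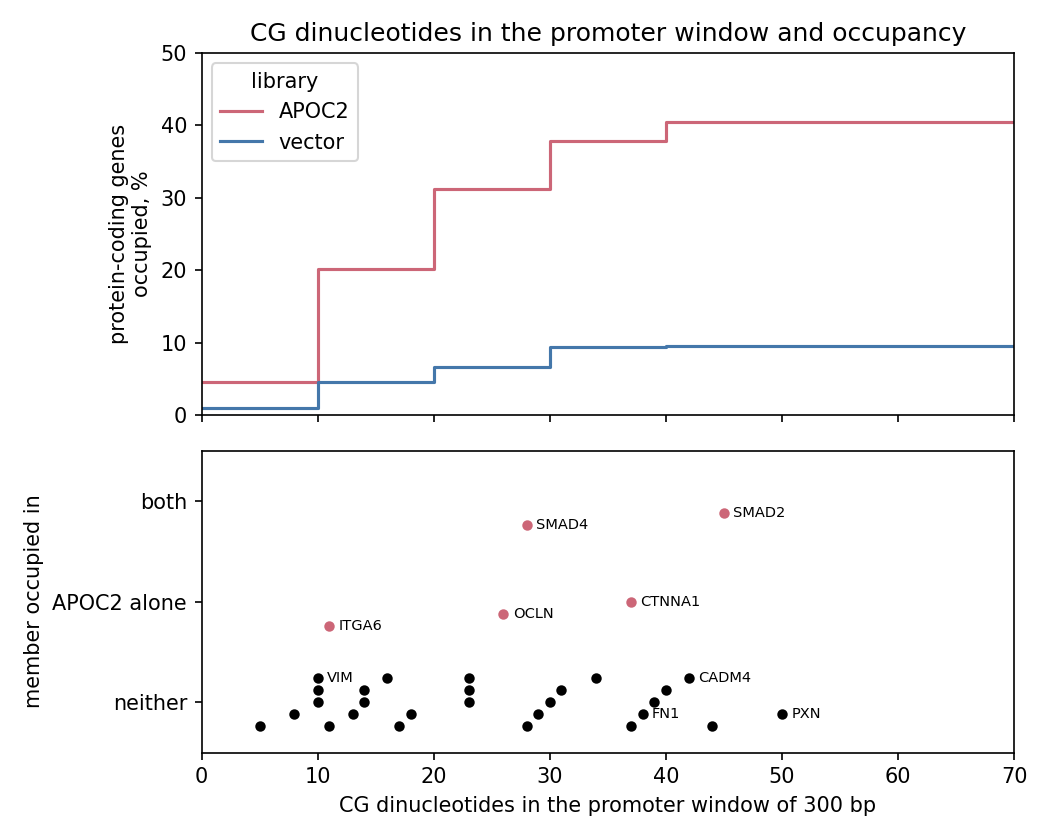
Upper panel: share occupied (percent) of the protein-coding genes with a RefSeq promoter window, by the number of CG dinucleotides in that 300 bp window, for the APOC2 (red) and vector (blue) library, in 5 ranges. Lower panel: the 32 genes with a window, 1 point each, by occupancy class (small vertical offsets only separate points). Occupied genes range from 11 (ITGA6) to 45 (SMAD2), and unoccupied ones from 5 to 50 (PXN).

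The promoters were also searched on both strands for CAGGTG, the E-box bound by SNAI and ZEB repressors. A match was found in 7 of the 32 windows (21.9%), against 19.9% of all protein-coding promoters of the same length. OCLN and ITGA6 held a match among the occupied genes, and CADM4, DSP, PXN, TJP1 and ZEB1 among those occupied in neither library. In the ITGA6, CADM4 and DSP windows there were 2 matches each. A match is a string of letters and was not shown to be a binding site.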

How the data were processed

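PHF8 ChIP-seq of RKO cells with vector or APOC2 plasmid was analysed from 1 deposited peak table per library, so peaks had been called per sample. The submitters' processing notes name Bowtie2 2.2.9, MACS2 2.0, HOMER and build hg38; thresholds and the control are not given in the sources used here. Per the file headers, the deposited columns hold the pileup signal at each summit and the fold enrichment over local background. A pair of deposited columns that lost their names hold -log10 of the p-value and of the q-value, judged by place and by recomputed Poisson tails (within 0.1 for 99.7% of vector and 99.9% of APOC2 peaks).

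Read totals were unknown. Vector pileups were multiples of 0.98953, and APOC2 backgrounds were spaced by 0.832 (65.5% of those between 1.5 and 10 lay on this step), so the APOC2 library had 0.823 times the vector depth if the control was the same. Depth-scaled pileup is the APOC2 pileup divided by 0.832.

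Peak midpoints were assigned to gene starts and ends of the RefSeq table (GRCh38.p14, all 46 symbols matched) within 1 kb, with Python 3.11.15, pandas 2.3.3 and scipy 1.17.1, and the code was tested on simulated peaks. Strand and promoter start came from the RefSeq promoter table, which holds 32 of the 46 genes. The genes and lists were chosen with earlier results of these data known. Every occupied gene of the 46 is named with its values and every unoccupied one by name or distance. Of each list of other genes, the 3 highest APOC2 values and every gene occupied in the vector library are named, except 1 gene that is not reported here. Alternatives changed the window, the site, the threshold, the number of peaks and the measure.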

Additional observations from a re-analysis of the deposited data

How the results depend on the processing

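With 1 library per condition, leaving out a replicate was not possible. No paired analysis was possible because each group had 1 library. Occupied genes were counted under 8 alternatives and the median ratio of genes occupied in both libraries under up to 11; a count was taken as changed beyond 1.5 times, the median beyond the counting interval. Of these values 37 stayed within those limits and 6 did not. Several of the 37 were counts exactly at the limit of 1.5 times. The count in the APOC2 library alone went from 6 to 9 with a 3 kb window. It went to 4 with a fold enrichment of at least 5. Over protein-coding genes, 26.2% were occupied in the APOC2 and 6.58% in the vector library with the 3 kb window. With the limit on fold enrichment these shares were 14.1% and 3.21%. With gene starts only, the APOC2 count went from 9 to 6 and the vector count from 3 to 2. The shares over the 15842 protein-coding genes with a promoter entry were 24.3% and 5.61%, near the 23.8% and 5.95% of the main rule. PTK2, SKI, CTNND1 and CADM1 have no promoter entry and were left out, and CADM4 came in. When a peak itself had to overlap a gene start or end, 0 genes were occupied in the vector library, 3 in the APOC2 library, 0 in both and 3 in the APOC2 library alone (PTK2, SMAD2 and SMAD4, which the 1 kb rule places in both), so that no ratio could be computed. With equal numbers of top-ranked peaks, 4 genes were occupied in the APOC2 library and 1 (OCLN) in that library alone. In the APOC2 library the shares over protein-coding genes fell too, to 8.55% with the overlap rule and 12.5% with equal numbers of peaks. In the vector library they were 1.45% and 5.95%. What part peak width, site and peak number had in these changes was not tested. Of the values for SMAD2, SMAD4 and PTK2 singly, 31 stayed within the limits, and SMAD2 reversed to -0.081 with the pileup as listed, which is in units of unequal depth. The gene-start alternative covered only the 32 genes with a promoter entry. The number of vector peaks and the unknown read totals limit what a missing vector peak can show.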
